A study of Mus musculus with 15 samples.

Results

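The 32 genes described here are carried by macrophages and other immune cells of the choroid, the vascular layer beneath the retinal pigment epithelium (RPE). They are taken by gene symbol, with no threshold on a measured value, from a list drawn up with earlier results of these data known: 4 pan-leukocyte genes (Ptprc, Cd53, Laptm5, Coro1a), 2 lineage regulators (Spi1, Csf1r), 7 surface and cytoplasmic macrophage markers (Adgre1, Cd68, Aif1, Cx3cr1, Itgam, Cd14, Ly86), 4 perivascular macrophage markers (Mrc1, Cd163, Lyve1, Pf4), the 3 C1q chains (C1qa, C1qb, C1qc), 4 MHC class II genes (Cd74, H2-Aa, H2-Ab1, H2-Eb1), 5 ITAM adaptors and Fc receptors (Tyrobp, Fcer1g, Trem2, Fcgr3, Fcgr2b) and 3 lysosomal or oxidative effectors (Ctss, Lyz2, Cybb). All 32 were listed among the 25038 genes of the RPE/choroid table. Of them, 12 were listed among the 20910 genes of the cultured mRPE table and were analysed there. The other 20 were not analysed there. Both tables together list 26509 genes.

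Choroidal macrophages lie along the vessels and beneath the RPE, where they take up debris, survey the tissue and present antigen. They need signalling through the CSF1 receptor and the transcription factor PU.1, the product of Spi1, and they are a main source of C1q, which starts the classical complement pathway. MHC class II molecules, which display peptides to CD4 T cells, are carried by a portion of macrophages and by dendritic cells and B cells, and perivascular macrophages are recognised by scavenger and mannose receptors such as Cd163 and Mrc1.

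To examine the loss of Prom1, a membrane protein whose mutations cause retinal degeneration, bulk RNA was sequenced from 15 mouse libraries. The tissue arm held 3 WT and 3 Prom1-KO libraries of dissected RPE/choroid. The Prom1-KO mice carried Prom1 fl/fl and RPE65-Cre and received tamoxifen by gavage, and the RPE65 promoter is active in the RPE and not in immune cells. The labels give neither the age of these mice nor whether the WT mice carried the floxed allele or Cre, and they do not say that each library came from a separate animal, so p-values measure only the spread between these libraries. The culture arm held mRPE cells, pooled from C57/BL6J mice and immortalised with HPV E6/E7: 4 WT libraries, 3 of the CRISPR/Cas9 line Prom1KO 22 (KO22) and 2 of the line Prom1KO 26 (KO26), each with its own deletion. Cells of the KO lines were given lentiviral Cas9 with puromycin selection and a guide RNA against exon 5 of Prom1, and whether the WT libraries came from cells given the scrambled guide is not stated. Each KO line is 1 line, so a difference from WT cannot be told apart from a difference between lines. Replicate 1 of each mRPE group carried the prefix 8995 in its library name and the others 9262. These prefixes are read here as library pools, and the paper speaks of sequencing batches. Both KO26 libraries were named as outliers by the authors in a principal component analysis after batch correction. The authors then left them out, so every KO26 value here comes from libraries that their analysis did not keep.

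The targeted gene was read first. Prom1 stood at 48.7, 49.6 and 53.3 CPM (counts scaled to a common library size, with TMM normalization) in WT RPE/choroid and at 49.9, 48.1 and 35.5 CPM in the libraries labelled Prom1-KO, so its level did not separate the labels (Prom1 is also transcribed outside the RPE). The labelled Prom1-KO libraries are called KO 1, KO 2 and KO 3 from here on. The RPE marker list did separate them: the 8 genes summed to between 1450.4 and 2355 CPM in WT and to between 132 and 249 CPM in KO 1 to KO 3. Libraries stood apart in other ways as well. KO 3 had 82.2% of its counts on mitochondrial rRNA and 18S genes against 56.8% to 65.2% in the other tissue libraries, and an effective library size (total counts times the TMM factor) of 30146121 against at least 51513048. Xist was at 1316 CPM in KO 1 and 1146 CPM in KO 2, and between 1.79 and 3.60 CPM in KO 3 and the WT libraries, with Ddx3y at 0.0194 and 0 CPM in KO 1 and KO 2 and between 20.4 and 26.2 CPM elsewhere. These sex-linked genes therefore split the labelled KO group, and KO 1 and KO 2 differed from every WT library in them, so a difference shared by KO 1 and KO 2 cannot be told apart from that split. Total counts ran from 48154444 to 61766179 per tissue library and from 8076188 to 27537863 per mRPE library, and the members took between 23350 and 36778 of them in tissue but only between 202 and 868 in mRPE.

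The promoters shown here are those of 2 of the MHC class II genes, the group with the largest fold changes in tissue, and of 1 C1q and 1 perivascular gene for contrast. Of the 32 members, 23 had an entry in the RefSeq promoter table (GRCm38.p6, an older build than the mm39 of the counts); Adgre1, C1qa, Cd14, Cd74, Csf1r, H2-Ab1, Lyve1, Spi1 and Tyrobp had none. Each window ran from 250 bases before to 50 bases after the gene's start, and 2 motifs were searched on both strands. The Y box of MHC class II promoters (CTGATTGG, reverse complement CCAATCAG) was present in 4.1% of 32851 promoters and, among the members, in H2-Aa and H2-Eb1. The purine-rich box bound by PU.1 (GAGGAAGT, reverse complement ACTTCCTC) was present in 3.2% of promoters and, among the members, in C1qc, Cd53, Ctss and Pf4. Capitals mark the motif in the 150 bases printed from each. In H2-Aa (chr17:34287824-34287973, minus strand) it lay 51 to 44 bases before the start, in H2-Eb1 (chr17:34305717-34305866, plus strand) 62 to 55 bases before it, in C1qc (chr4:136893015-136893164, minus strand) 195 to 188 bases and in Pf4 (chr5:90772285-90772434, plus strand) 10 to 3 bases, with the box of C1qc and Pf4 on the strand opposite to the gene. A match of letters is a description and not a binding site.
H2-Aa: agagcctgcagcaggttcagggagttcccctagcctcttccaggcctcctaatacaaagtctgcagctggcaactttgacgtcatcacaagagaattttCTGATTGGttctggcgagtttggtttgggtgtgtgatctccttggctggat
H2-Eb1: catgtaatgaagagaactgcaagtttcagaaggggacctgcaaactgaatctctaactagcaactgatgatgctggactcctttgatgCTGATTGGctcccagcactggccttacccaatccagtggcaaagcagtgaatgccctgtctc
C1qc: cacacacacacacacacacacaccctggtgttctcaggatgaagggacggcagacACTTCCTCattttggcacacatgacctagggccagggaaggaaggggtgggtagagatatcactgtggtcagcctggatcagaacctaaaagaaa
Pf4: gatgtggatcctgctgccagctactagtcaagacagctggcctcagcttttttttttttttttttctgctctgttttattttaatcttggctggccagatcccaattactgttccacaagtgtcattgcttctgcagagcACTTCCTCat

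In RPE/choroid, the MHC class II genes stood higher in every labelled Prom1-KO library than in any WT library, as did Ly86 and Cx3cr1, while Csf1r stood lower in all of them. None of the 32 members passed both limits of a call (adjusted p under 0.05 and a log2 fold change beyond 1.2, or 2.3-fold) in edgeR's quasi-likelihood test, where 0% of 24926 genes were called higher and 0.189% lower. The smallest adjusted p of a member in that test was 0.196. At an unadjusted p under 0.05, edgeR gave 11 members higher and 1 lower, against 3.98% and 4.31% of all genes. DESeq2, run as the alternative test, called 4 members higher (H2-Aa, H2-Ab1, H2-Eb1 and Ly86) and none lower, against 0.333% and 0.754% of all genes, and on its adjusted p alone 6 members were higher, with Cd74 and Cx3cr1 added, and 1 was lower, Csf1r (0.582% and 1.22% of all genes). The tissue calls therefore depend on the tool. They also depend on KO 3: without it edgeR called no member (0.0121% of all genes higher, 0.149% lower) and had 6 members higher and 3 lower at an unadjusted p under 0.05 (3.85% and 5.66%), while DESeq2 called no member on both limits (0.339% and 1.11%) and 3 higher (Ly86, Cd74 and H2-Aa) and 1 lower (Csf1r) on the adjusted p alone (0.67% and 1.7%).

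By plain separation of the libraries, 10 members had all 3 labelled KO libraries above all 3 WT libraries (6.71% of all genes did so) and 3 had all of them below (7.89%), with 19 members overlapping. The 10 were Ptprc, Coro1a, Cx3cr1, Ly86, C1qb, C1qc, Cd74, H2-Aa, H2-Ab1 and H2-Eb1, and the 3 were Csf1r, Cd68 and Trem2. Without KO 3, 11 members were separate and higher and 6 separate and lower (12.9% and 13.6% of all genes), counts that include the 10 and the 3 by construction. Across the 32 members, 21 fold changes were positive and 11 negative, with a median log2 fold change of 0.25 beside 0.01 over all genes tested. Scaling by total counts alone moved the median of all genes to -0.46 and that of the members to -0.24, so each tissue fold change is relative to the other genes of the library. In bulk tissue, fewer cells of a type and less RNA per cell cannot be told apart.

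**Figure D1:**
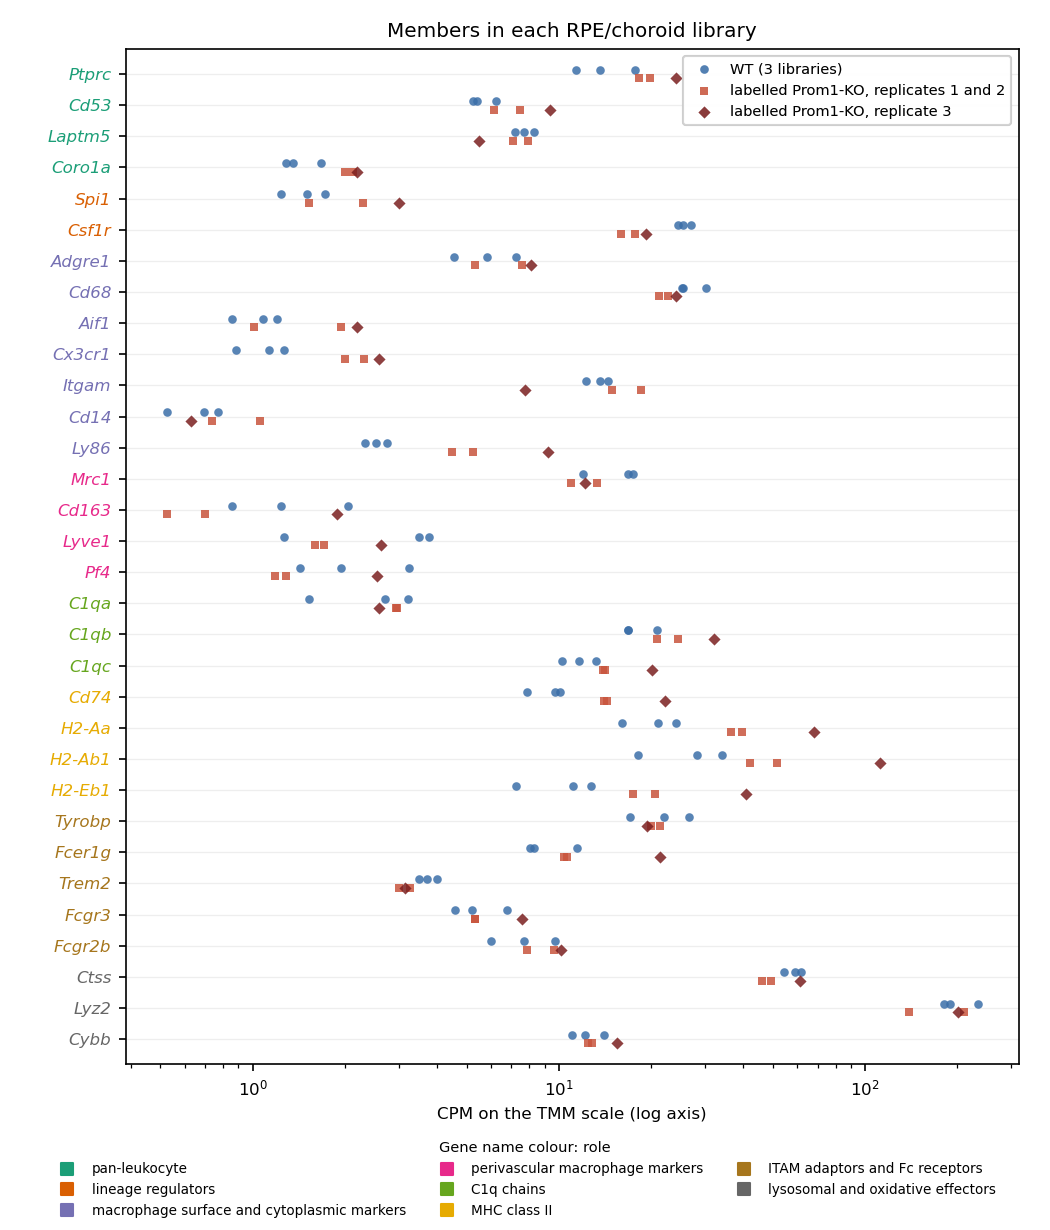
CPM on the TMM scale (log axis) of the 32 members in each of the 6 RPE/choroid libraries, with gene names coloured by role. All labelled Prom1-KO symbols (squares, and a diamond for replicate 3) lie right of the WT circles for H2-Aa, H2-Ab1, H2-Eb1, Cd74, Ly86 and Cx3cr1 and left of them for Csf1r, while 19 of the 32 overlap.

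The MHC class II genes had the highest median log2 fold change of the 8 roles, at 1.29 over the 4 genes. H2-Aa, which encodes an alpha chain of the class II dimer, was at 16.1, 24.1 and 21.0 CPM in WT 1, 2 and 3 and at 39.8, 36.6 and 68.1 CPM in KO 1, 2 and 3. Its beta chain partner H2-Ab1 was at 18.1, 28.1 and 34.0 CPM in WT and at 51.6, 41.9 and 112 CPM in the labelled KO libraries. H2-Eb1, the beta chain of the second class II isotype, was at 7.24, 11.1 and 12.8 CPM against 20.6, 17.5 and 40.9 CPM. In each of these genes the lowest labelled KO library lay above the highest WT library, and KO 3 was the highest of the 6. Cd74, the invariant chain that escorts class II dimers to the endosome, was at 7.87, 9.72 and 10.1 CPM in WT and at 14.4, 14.0 and 22.2 CPM in KO 1 to KO 3, again without overlap.

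H2-Aa differed by a log2 fold change of 1.24 ± 0.27 (SE, 2.36-fold), with an adjusted p of 0.201 in edgeR and 0.00298 in DESeq2. H2-Ab1 differed by 1.35 ± 0.40 (2.55-fold; adjusted p = 0.384 in edgeR, 0.0326 in DESeq2) and H2-Eb1 by 1.34 ± 0.36 (2.53-fold; 0.321 and 0.0167). Cd74 differed by 0.87 ± 0.21 (1.83-fold; 0.255 and 0.0285). All 4 genes kept a positive sign under all 14 alternatives that gave a value, but without KO 3 the median of the group was 0.83 and DESeq2 retained H2-Aa (adjusted p = 0.00544) and Cd74 (0.0367) on the adjusted p alone, while H2-Ab1 (0.169) and H2-Eb1 (0.081) were past it. Of the exonic bases of H2-Eb1, 9.6% are overlapped on the opposite strand by other genes, as are 19.8% of those of Csf1r, 16.6% of Aif1 and 16.1% of Lyz2. The strand setting of the counting is not given in the sources used here, so these counts may hold reads of the overlapping genes.

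Summed over the 4 genes, MHC class II stood at 49.3, 73.1 and 77.9 CPM in WT (66.8 ± 15.3, SD, n = 3) and at 126, 110.0 and 243 CPM in KO 1, 2 and 3 (159.8 ± 72.5, SD, n = 3), or 2.39-fold higher in the mean and 1.77-fold without KO 3. As a share of all member counts, these 4 genes took from 9.99% in WT 1 to 31.4% in KO 3. Cd74 over the summed class II chain genes was 0.190, 0.153 and 0.148 in WT and 0.128, 0.146 and 0.101 in KO 1 to KO 3. These did not overlap, by a small margin in KO 2. Ratios between the chain genes overlapped between the groups. H2-Eb1 over H2-Aa was 0.451, 0.462 and 0.607 in WT and 0.519, 0.478 and 0.60 in KO 1 to KO 3, and H2-Ab1 over H2-Aa was 1.13, 1.17 and 1.61 against 1.30, 1.15 and 1.64.

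Further genes of the class II pathway were less uniform. The list tested holds 15 genes and covers the CIITA and RFX regulators, the peptide loading factors and the costimulators. None was called by edgeR or DESeq2. A positive fold change was seen in 13, as in 12913 of all 24926 genes tested, with a median log2 fold change of 0.19. At an unadjusted p under 0.05 in edgeR, 5 of the list were higher and none lower, against 3.98% and 4.31% of all genes. Its most abundant members were Lgmn, a lysosomal protease, at 9.39 to 10.5 CPM in WT and 9.55 to 11.4 CPM in KO 1 to KO 3, Rfx5 at 6.51 to 7.15 against 5.84 to 8.25 CPM, and Ifi30, a lysosomal thiol reductase, at 5.22 to 6.36 against 8.13 to 9.44 CPM. Ciita, the master transcriptional activator of class II genes and named here after its values were seen, was at 2.02, 3.08 and 3.85 CPM in WT and at 4.72, 3.98 and 5.57 CPM in the labelled KO libraries, which did not overlap. H2-Oa and H2-DMb2 (also named after their values were seen) were at or below 0.311 CPM in every tissue library, with 0 to 5 counts in WT and 4 to 16 in the labelled KO libraries.

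Among the surface and cytoplasmic markers, Ly86 and Cx3cr1 were set apart from the remaining 5. Ly86 (MD-1), which pairs with CD180 on macrophages, dendritic cells and B cells, was at 2.33, 2.54 and 2.75 CPM in WT and at 5.26, 4.47 and 9.19 CPM in KO 1, 2 and 3. Cx3cr1, the fractalkine receptor of microglia, monocytes and a portion of tissue macrophages, was at 0.884, 1.13 and 1.27 CPM against 2.31, 2.01 and 2.59 CPM. Neither gene overlapped between the groups. Ly86 differed by a log2 fold change of 1.30 ± 0.28 (2.47-fold), with an adjusted p of 0.197 in edgeR and 0.00373 in DESeq2, and without KO 3 by 0.92 ± 0.16 (adjusted p = 0.171 in edgeR, 0.00199 in DESeq2). Cx3cr1 differed by 1.07 ± 0.23 (2.10-fold; adjusted p = 0.196 in edgeR, 0.0126 in DESeq2), and by 0.97 ± 0.24 without KO 3, when the DESeq2 value was 0.0572.

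The other surface and cytoplasmic markers did not separate the groups except Cd68, and none passed a test. Cd68, the endosomal glycoprotein of phagocytes, was at 25.4, 30.3 and 25.2 CPM in WT and at 22.8, 21.2 and 24.1 CPM in the labelled KO libraries, with a log2 fold change of -0.25 ± 0.13. Adgre1, which encodes F4/80, ran from 4.56 to 7.27 CPM in WT and from 5.32 to 8.09 CPM in KO 1 to KO 3. Aif1, which encodes IBA1, ran from 0.856 to 1.2 against 1.01 to 2.19 CPM. The lipopolysaccharide co-receptor gene Cd14 was at most 1.06 CPM in any tissue library. Itgam, which encodes CD11b, was at 12.3 to 14.5 CPM in WT and spread from 7.76 CPM in KO 3 to 18.6 CPM in KO 2, and 67.4% of it is overlapped by another gene of the same strand, so its count is uncertain.

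The lineage regulators had fold changes of opposite sign. Csf1r, the receptor for CSF1 and IL-34 on which macrophages depend, was at 24.6, 25.4 and 26.9 CPM in WT and at 17.7, 15.9 and 19.2 CPM in KO 1, 2 and 3. No labelled KO library reached the WT range. The log2 fold change was -0.54 ± 0.12, or 1.46-fold lower in the labelled KO libraries, with an adjusted p of 0.211 in edgeR and 0.0231 in DESeq2, and -0.62 ± 0.11 without KO 3 (0.173 in edgeR, 0.00139 in DESeq2), always inside the fold limit. Spi1 was at 1.23, 1.73 and 1.50 CPM in WT and at 2.29, 1.53 and 3.02 CPM in the labelled KO libraries, with overlap and a log2 fold change of 0.61 ± 0.29. Of the receptor's ligands, Csf1 was at 6.55 to 9.53 CPM in WT and 8.39 to 9.53 CPM in KO 1 to KO 3.

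The 4 perivascular macrophage markers all had a negative fold change, with a median of -0.43, but overlapped between the groups. Mrc1, the mannose receptor, was at 12, 17.5 and 16.8 CPM in WT and at 13.4, 11 and 12.2 CPM in KO 1, 2 and 3. Cd163, the haemoglobin scavenger receptor, was at 0.856, 2.05 and 1.24 CPM against 0.524, 0.702 and 1.89 CPM. Lyve1, a hyaluronan receptor shared with lymphatic endothelium, was at 1.26, 3.75 and 3.48 CPM against 1.71, 1.6 and 2.62 CPM, and Pf4, a platelet chemokine that also marks these macrophages, was at 1.43, 3.25 and 1.94 CPM against 1.18, 1.29 and 2.55 CPM. WT 1 was the lowest WT library in each of the 4, and KO 3 was the highest labelled KO library in all but Mrc1. The log2 fold changes were -0.34 ± 0.18 for Mrc1, -0.44 ± 0.54 for Cd163, -0.53 ± 0.42 for Lyve1 and -0.41 ± 0.41 for Pf4, none of them past an unadjusted p of 0.05. Without KO 3 the median of the 4 was -0.82, with Cd163 at -1.18 ± 0.44.

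The C1q chains differed among themselves. C1qb was at 16.8, 20.9 and 16.9 CPM in WT and at 24.5, 21.0 and 32.1 CPM in KO 1, 2 and 3, and C1qc at 11.6, 13.3 and 10.2 CPM against 14.2, 14.0 and 20.1 CPM, both without overlap though by a small margin in KO 2. C1qa overlapped between the groups, at 3.21, 2.71 and 1.53 CPM against 2.95, 2.97 and 2.59 CPM. Log2 fold changes were 0.51 ± 0.19 for C1qb (adjusted p = 0.523 in edgeR, 0.41 in DESeq2), 0.46 ± 0.19 for C1qc (0.584 and 0.546) and 0.19 ± 0.28 for C1qa, and the sign of all 3 turned negative when libraries were scaled by total counts. The 3 chains summed to 32.4 ± 4.17 CPM in WT and 44.8 ± 8.86 CPM in the labelled KO libraries (SD, n = 3 each), 1.38-fold higher, or 1.23-fold without KO 3. C1qb over C1qc stayed between 1.44 and 1.73 in all 6 libraries.

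**Figure D2:**
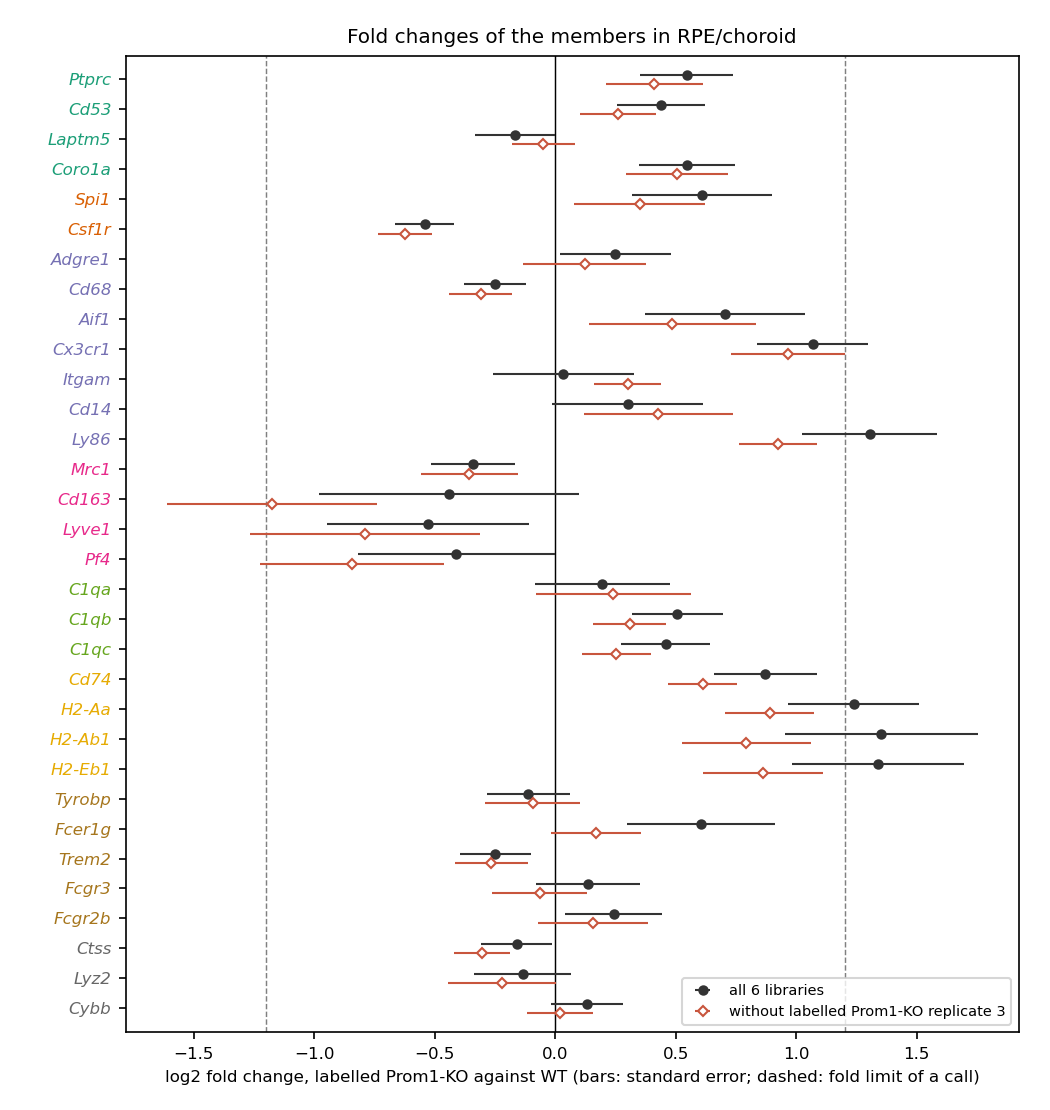
Log2 fold change with its standard error for each member, labelled Prom1-KO against WT RPE/choroid, with all 6 libraries (black circles) and without replicate 3 of the labelled Prom1-KO group (open diamonds); dashed lines mark the fold limit of 1.2. H2-Aa, H2-Ab1, H2-Eb1 and Ly86 lie past the limit with all libraries and inside it without replicate 3, and no member passed edgeR's adjusted p.

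Of the pan-leukocyte genes, Ptprc and Coro1a separated the groups and Cd53 and Laptm5 did not. Ptprc, which encodes CD45 on all nucleated blood cells, was at 11.3, 17.7 and 13.6 CPM in WT and at 19.8, 18.3 and 24.0 CPM in KO 1, 2 and 3. Coro1a, an actin regulator of leukocytes, was at 1.29, 1.67 and 1.36 CPM against 2.00, 2.12 and 2.19 CPM. Neither overlapped, and the log2 fold changes of 0.54 ± 0.19 and 0.55 ± 0.20 had adjusted p-values of 0.503 and 0.52 in edgeR. Cd53, a leukocyte tetraspanin, overlapped at 5.25 to 6.26 CPM in WT and 6.15 to 9.32 CPM in the labelled KO libraries. Laptm5, a lysosomal protein of haematopoietic cells, was at 7.19 to 8.27 CPM in WT, at 7.94 and 7.10 CPM in KO 1 and KO 2 and at 5.51 CPM in KO 3.

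The lysosomal and oxidative effectors overlapped between the groups. Lyz2, the myeloid lysozyme, was at 181, 233 and 189.7 CPM in WT and at 209.9, 139 and 201 CPM in KO 1, 2 and 3, and alone made up 26.0% to 37.5% of all member counts. Per kilobase of exon it was also the highest member (60.6 CPM per kb in WT, 55.1 in the labelled KO group), followed in WT by Tyrobp (32.1), Cd68 (19.7), Ctss (11) and H2-Ab1 (10.4), and Cx3cr1 was the lowest (0.235). On that scale H2-Ab1 reached 26.6 CPM per kb in the labelled KO group, and Ctss 9.85. Ctss, the protease that trims the invariant chain, was at 54.4 to 61.9 CPM in WT and 46.2 to 61.4 CPM in KO 1 to KO 3. Cybb, the catalytic subunit of the phagocyte NADPH oxidase, was at 11 to 14.0 against 12.5 to 15.4 CPM.

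Of the ITAM adaptors and Fc receptors, Trem2 alone separated the groups. Tyrobp, which encodes the adaptor DAP12, was at 17.1 to 26.5 CPM in WT and 19.3 to 21.4 CPM in KO 1 to KO 3. Its partner receptor Trem2 was at 3.48 to 3.99 CPM in WT and 3.0 to 3.26 CPM in the labelled KO libraries, separated by a small margin, with a log2 fold change of -0.25 ± 0.15. Fcer1g, the common gamma chain of Fc receptors, was at 10.6 and 10.4 CPM in KO 1 and KO 2, inside the WT range of 8.06 to 11.45 CPM, and at 21.4 CPM in KO 3. Fcgr3 and Fcgr2b, the activating and inhibitory low-affinity IgG receptors, overlapped, with log2 fold changes of 0.14 ± 0.22 and 0.24 ± 0.20.

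Ratios of counts within a library do not depend on its scaling. They were chosen after the levels had been seen and are given as a description without a test. Summed MHC class II over summed perivascular markers was 3.17, 2.76 and 3.31 in WT 1, 2 and 3 and 7.54, 7.55 and 12.6 in KO 1, 2 and 3. MHC class II over C1q was 1.56, 1.98 and 2.72 against 3.04, 2.90 and 4.44, and Csf1r over C1q was 0.777, 0.690 and 0.941 against 0.424, 0.420 and 0.351. In each of these ratios the groups did not overlap, and KO 1 and KO 2 stood apart from WT as KO 3 did. Perivascular markers over C1q were 0.492, 0.720 and 0.821 against 0.403, 0.385 and 0.352. Cx3cr1 over Csf1r was 0.036, 0.045 and 0.047 in WT and 0.131, 0.126 and 0.135 in the labelled KO libraries, and Csf1r over Ptprc was 2.16, 1.44 and 1.98 against 0.892, 0.869 and 0.799. Mrc1 over Csf1r overlapped, at 0.489 to 0.687 in WT and 0.636 to 0.756 in KO 1 to KO 3.

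**Figure D3:**
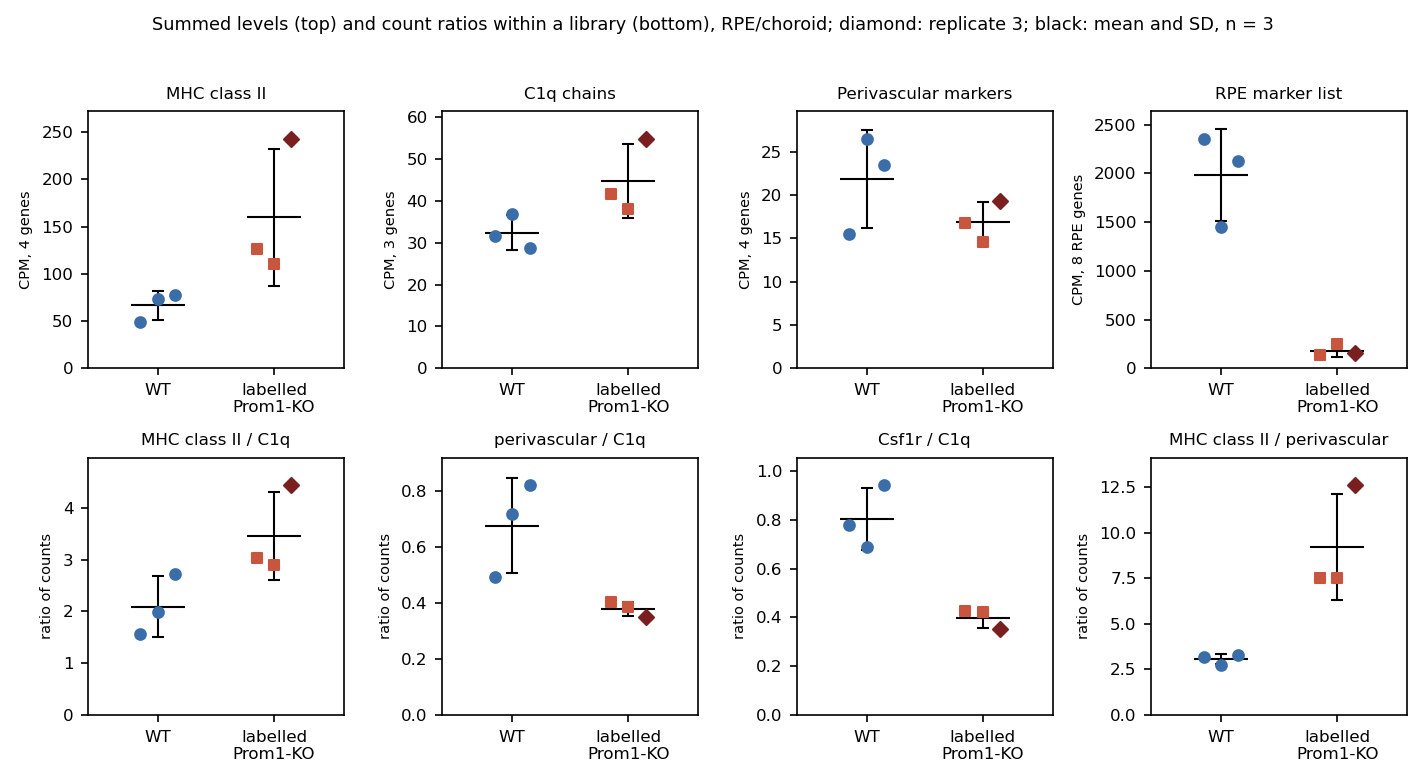
Summed CPM (top) of MHC class II, C1q, perivascular and RPE genes and count ratios within a library (bottom) in the 6 RPE/choroid libraries; points are libraries, the diamond is KO 3, and black bars are mean and SD (n = 3). MHC class II over perivascular markers is 2.76 to 3.31 in WT and 7.54 to 12.6 in the labelled Prom1-KO libraries; the C1q sums are higher in the labelled Prom1-KO libraries on the TMM scale, but the fold changes of the 3 chains are negative when scaled by total counts.

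Markers of other cells also differed between the libraries, and their part in the members' values was not tested. None of the lists below shares a gene with the 32 members. B and plasma cell genes summed to 3.81 to 4.91 CPM in WT and to 9.63, 23.8 and 18.8 CPM in KO 1, 2 and 3. Of the 6 tested, 3 (Ighm, Igkc and Jchain) were called higher by DESeq2, against 0.333% of all genes, and none by edgeR. The B cell markers Ms4a1 and Cd79b, named after their values were seen, were at or below 0.252 CPM in every tissue library. T and NK cell genes summed to 5.23 to 6.83 CPM against 7.22 to 9.13 CPM. All 10 tested were positive, as were 12913 of all 24926 genes tested. At an unadjusted p under 0.05 in edgeR, 3 of the 10 were higher (3.98% of all genes), and neither tool called any. Dendritic cell genes overlapped in sum, at 8.54 to 12.9 against 9.94 to 12 CPM, but Cd209a, likewise named after its values were seen and called higher by DESeq2 and not by edgeR, was at 0.351, 0.761 and 1.38 CPM in WT and at 3.44, 2.42 and 3.75 CPM in the labelled KO libraries. Microglia genes summed to 40.6 to 50.9 CPM against 52.7 to 67.6 CPM, with 5 of 8 higher at an unadjusted p under 0.05 (3.98% of all genes). Monocyte genes (24.4 to 33.9 against 29.9 to 32.7 CPM) and neutrophil genes (3.06 to 7.54 against 3.15 to 6.11 CPM) overlapped in sum. Of the 8 monocyte genes tested, 4 were separate and higher and 1 separate and lower (6.71% and 7.89% of all genes). At an unadjusted p under 0.05 in edgeR, 3 were higher and 1 lower (3.98% and 4.31% of all genes). DESeq2 called 1 of them lower on both limits (0.754% of all genes) and none higher, and edgeR called none.

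Marker genes of non-immune cells also differed between the libraries. Of the 8 RPE genes, DESeq2 called 6 lower in the labelled KO libraries, against 0.754% of all genes. EdgeR called 4 lower, against 0.189% of all genes. The log2 fold changes of those 4 were -6.06 for Rpe65, -5.23 for Rgr, -3.43 for Lrat and -2.10 for Rdh5. Endothelial genes summed to 69.7, 141 and 93.8 CPM in WT and to 63.5, 56.8 and 40.3 CPM in KO 1 to KO 3. None was called by edgeR, with 5 of 8 lower at an unadjusted p under 0.05 (4.31% of all genes). DESeq2 called 2 lower (0.754% of all genes). WT 1 was thus the lowest of the WT libraries in endothelial as in perivascular macrophage genes. Skeletal muscle genes ran from 278 to 832 CPM in WT and were at 52.2, 211 and 754 CPM in KO 1, 2 and 3, rod genes ran from 43.3 to 1163 CPM in WT and from 20.8 to 559.7 CPM in KO 1 to KO 3, and globin-led erythroid genes were at 114 CPM in KO 3 against 14.8 and 15.5 CPM in KO 1 and KO 2. What these differences reflect, and whether they bear on the members, was not tested.

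In cultured mRPE, the 12 listed members were read at low counts. In WT cells Csf1r was at 3.59 to 4.71 CPM, Cd68 at 3.70 to 4.61 CPM and Cd14 at 3.70 to 5.38 CPM, and the remaining 9 were below 2 CPM in every WT library. Beside tissue, Lyz2 was at 0.119 to 0.393 CPM in WT mRPE and at 181 to 233 CPM in WT RPE/choroid, and Ctss at 0.159 to 1.96 against 54.4 to 61.9 CPM. Cd14 was the exception among the 12, at 0.525 to 0.771 CPM in tissue and at 3.70 to 5.38 CPM in WT mRPE. The tables were normalized separately and differ in tissue, pool and depth, so no test was made.

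KO22 differed from WT mRPE in 5 of the 11 members tested: edgeR called Cd53, Cd14 and Cd163 higher and Lyve1 and Cybb lower, against 11.4% of 20455 genes called higher and 13.8% called lower. Cd163 had passed the count filter only through KO22, so that it had to differ. Lyve1 and Cybb had passed it only through WT, so the same holds for them in the other direction. Cd53 also needed its KO22 counts to pass the filter. KO26 differed from WT in none of the 12 members (1.21% of 20737 genes were called higher and 0.719% lower), with 5 members higher and none lower at an unadjusted p under 0.05 in edgeR (11.1% and 9.02% of all genes) and none called by DESeq2 (1.74% and 1.3% of all genes). Lyz2, among those 5, passed the count filter only through KO libraries, so its p-value supports nothing. The KO22 and KO26 comparisons share the WT libraries.

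Cd14, the co-receptor that presents lipopolysaccharide to TLR4, rose in KO22. It was at 5.01, 3.70, 5.30 and 5.38 CPM in WT 1 to 4, at 12, 20.1 and 18.6 CPM in KO22 1 to 3 and at 5.06 and 6.36 CPM in KO26 1 and 2. All KO22 libraries lay above all others, in both pools. The log2 fold change was 1.79 ± 0.21 in KO22 against WT (3.47-fold, adjusted p = 8.73e-05 in edgeR), 0.29 ± 0.25 in KO26 against WT (0.556) and 1.51 ± 0.27 between KO22 and KO26 (0.00171).

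Cd53 also rose in KO22. It was at 0.318, 0.343, 0.196 and 0.287 CPM in WT, at 1.04, 3.04 and 3.49 CPM in KO22 and at 0.464 and 1.04 CPM in KO26, with counts of 2 to 8 in WT. KO22 lay above WT in both pools but KO22 1 lay level with KO26 2. The log2 fold change was 2.96 ± 0.41 against WT (7.80-fold, adjusted p = 0.00026 in edgeR) and 1.57 ± 0.48 against KO26 (0.0269), and the call against KO26 was lost when KO22 2 (adjusted p = 0.0632), KO22 3 (0.0715), KO26 1 (0.107) or KO26 2 (0.112) was left out. In KO26 against WT it was 1.38 ± 0.53 (0.179). In the test of KO22 against WT, Cd53 passed the count filter only with its KO22 counts, since WT 3 and WT 4 held 2 and 4 counts. Its p-value in that test therefore supports nothing.

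Cd163 and Lyve1, both perivascular macrophage markers in tissue, went opposite ways in KO22. Cd163 had 0, 1, 0 and 0 counts in WT 1 to 4, 11, 22 and 17 counts in KO22 and 0 in both KO26 libraries. Pooled over libraries and scaled to their sizes, KO22 exceeded WT by a ratio of 70.7 (95% counting interval 12.1 to 2846) and exceeded KO26 at least 11.1-fold, against a floor of 3 counts over the group. Lyve1 had 9, 4, 8 and 12 counts in WT, 0 in all 3 KO22 libraries and 11 and 8 in KO26. WT was at least 7.78-fold and KO26 at least 9.48-fold higher than KO22 over the same floor. The adjusted p-values in edgeR were 0.000174 for Cd163 and 0.00379 for Lyve1 in KO22 against WT, and 0.00217 and 0.00339 in KO22 against KO26. In both comparisons Cd163 entered the test only through its KO22 counts, so that it had to differ and its p-values support nothing. Lyve1 entered the test of KO22 against WT only through its WT counts, so its p-value there supports nothing either.

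Cybb fell in KO22, at counts near the floor. It was at 0.397, 0.411, 0.884 and 1.00 CPM in WT, at 0.0865, 0.0964 and 0.155 CPM in KO22 (1 to 2 counts each) and at 0.0464 and 1.62 CPM in KO26. The log2 fold change was -2.48 ± 0.59 against WT (adjusted p = 0.00616 in edgeR). Cybb entered that test only through its WT counts, so this p-value supports nothing. The 2 KO26 libraries lay below and above all WT libraries, with 0.12 ± 0.75 against WT.

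The other members listed in mRPE were not called in KO22. Cd68 was at 9.34, 7.86 and 5.28 CPM in KO22, above the WT range and the 3.80 and 3.93 CPM of KO26. Its difference from WT, 0.87 ± 0.23 on the log2 scale, passed the adjusted p in edgeR (0.0101) but not the fold limit. Csf1r was at 4.15 to 5.93 CPM in KO22 and at 6.31 and 5.44 CPM in KO26, with log2 fold changes of 0.29 ± 0.22 and 0.53 ± 0.25 against WT. Cd74, the class II member listed there, was at 0.0686 to 0.636 CPM in WT, 0.579 to 1.01 CPM in KO22 and 1.16 and 2.08 CPM in KO26, and its log2 fold change of 1.86 ± 0.59 in KO26 had an adjusted p of 0.113 in edgeR, which became 0.0346 when KO22 1 was left out of the shared fit. Lyz2 was at 0.557 and 1.62 CPM in KO26 against at most 0.393 CPM in WT, with a log2 fold change of 2.71 ± 0.90. Its adjusted p in edgeR was 0.13, and 0.0318 without KO22 1. No WT library held the 5 counts of the filter. Lyz2 thus entered the test only through KO libraries, and these p-values support nothing. It was not tested in KO22 against WT. Coro1a was at 1.44 and 0.810 CPM in KO26 against 0.196 to 0.480 CPM in WT (log2 fold change 1.70 ± 0.64, adjusted p = 0.172). Fcer1g overlapped across the lines, with a log2 fold change of -1.07 ± 0.61 in KO22 against WT (adjusted p = 0.166 in edgeR) that became -1.98 (0.0175) without WT 1 and -1.97 (0.0225) without KO22 1. Against KO26 its value of -1.32 (0.204) became -2.47 (0.0217) without KO22 1. Ctss overlapped as well, and pool 8995 held the lowest Ctss libraries, WT 1 at 0.159 CPM and KO22 1 at 0 CPM.

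Between KO22 and KO26, edgeR called Cd53, Cd14 and Cd163 higher and Lyve1 lower in KO22 (7.56% of 20737 genes were called higher and 10.7% lower, and Cd163 had again passed the count filter only through KO22), and DESeq2 called 3 higher and 2 lower (7.6% and 10.6% of all genes), adding Ctss among the lower (adjusted p = 0.0183, 0.0943 in edgeR). Cybb was called lower in KO22 without WT 1 (adjusted p = 0.0223), KO22 1 (0.0245) or KO26 1 (0.00711), and not with all libraries (0.0531), and its log2 fold change turned from -2.71 to 0.48 without KO26 2.

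**Figure D4:**
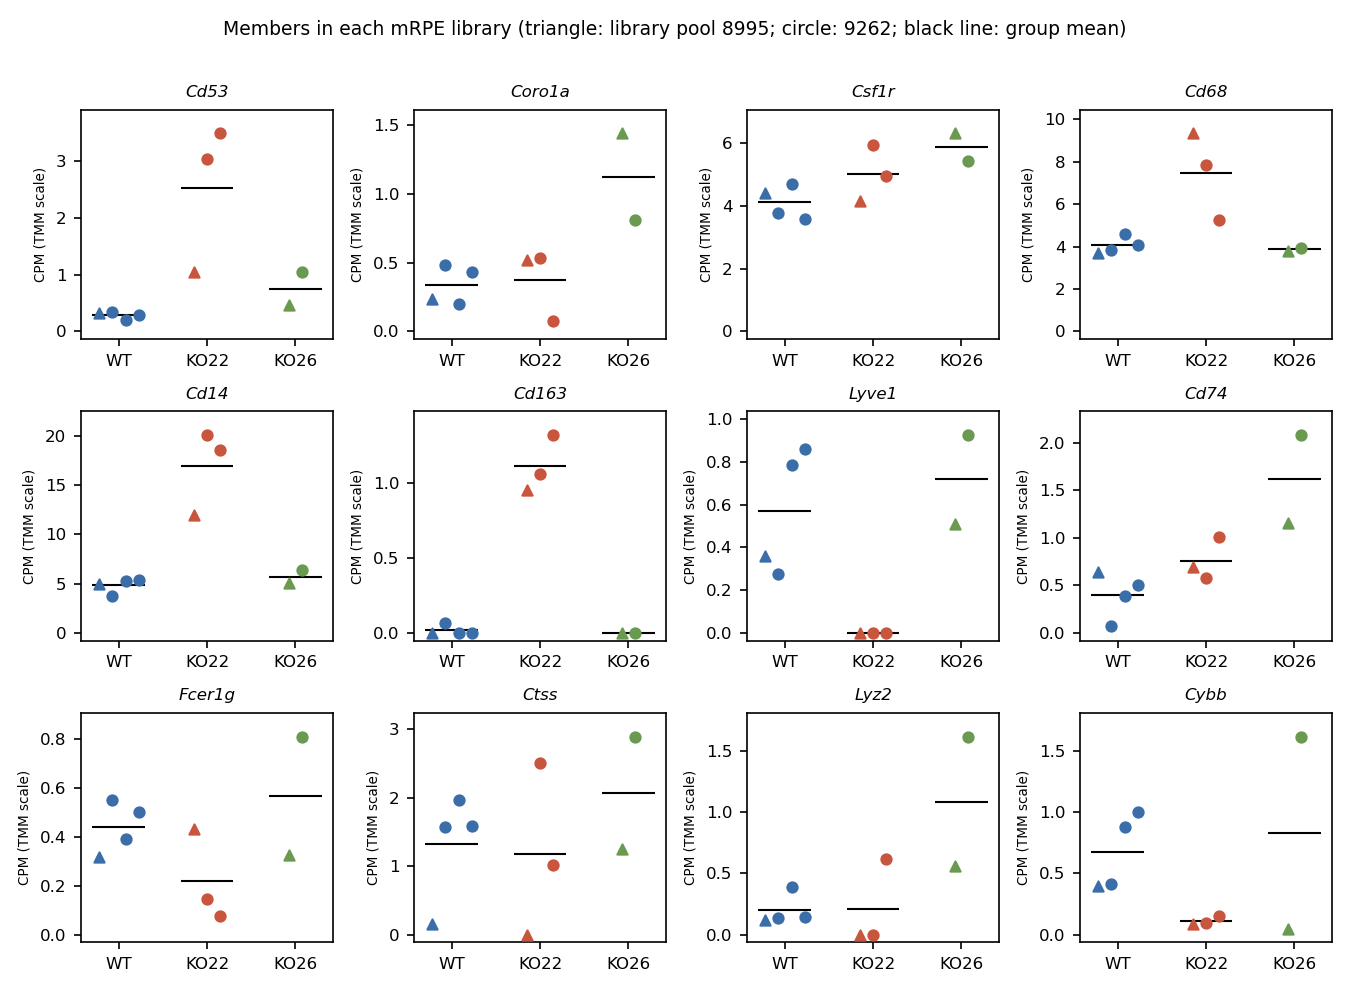
CPM on the TMM scale of the 12 members listed in mRPE, by line; triangles are library pool 8995, circles pool 9262, and black lines group means. Cd14 and Cd53 are higher in KO22 than in WT in both pools, Cd163 is read in KO22 with 1 count in WT, and Lyve1 is at 0 in all 3 KO22 libraries.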

How the data were processed

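Polyadenylated RNA was sequenced from 15 mouse libraries, 6 of RPE/choroid and 9 of mRPE. Per the labels and the submitters' processing notes, the authors trimmed reads with Trim Galore (0.6.7), aligned them to mm39 with STAR and deposited raw read counts per gene. Notes name DESeq2 (1.42.0) for their own normalized tables, which were not used here. Genes without a symbol (249 in RPE/choroid, 197 in mRPE) stayed in library sizes and fits. No per-sample column was left unmapped.

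A gene entered the fit when 3 or more libraries held 5 or more counts of it. The test was edgeR's quasi-likelihood test (edgeR 4.0.16, limma 3.58.1, R 4.3.3) after TMM scaling. RPE/choroid was fitted on its 6 libraries, KO22 against WT on those groups with library pool as a term, and both KO26 comparisons on all 9 mRPE libraries with the same term. A call needed a Benjamini-Hochberg adjusted p under 0.05 over all genes tested and a log2 fold change beyond 1.2. DESeq2 was the alternative test. Scripts were tested on simulated data. The counting intervals and floors of 3 counts cover counting error only.

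Members and the 30 gene lists were chosen with earlier results of these data known. All 32 members are named. In the other lists, genes called by edgeR in RPE/choroid are named, and only a part of those called by DESeq2. Otherwise at most the 3 highest by mean CPM are named, plus Prom1, Xist and Ddx3y as checks. Exceptions are stated where they occur.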

Additional observations from a re-analysis of the deposited data

Results flagged for a closer look

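In WT mRPE, 2 members had 1 library far from the other 3, by a gap test that chance meets in about 1 in 20 groups of continuous values. That rate does not hold for counts this low, where 1 count beside 0 in the others always meets the test. Cd163 was at 0.0686 CPM in WT 2, which is 1 count, and at 0 in the others. Lyz2 was at 0.393 CPM in WT 3, which is 4 counts, and between 0.119 and 0.144 CPM in the others.

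In edgeR's test of KO22 against KO26, 4 members were called, of which Cd163 passed the count filter only through KO22 and so had to differ. The log2 fold change was 1.57 for Cd53 (adjusted p = 0.0269), 1.51 for Cd14 (0.00171), 6.95 for Cd163 (0.00217) and -6.66 for Lyve1 (0.00339). The values for Cd163 and Lyve1 depend on the prior count, since KO26 had 0 counts of Cd163 and KO22 had 0 of Lyve1, and are no bound on the fold.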

How the results depend on the processing

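In RPE/choroid, edgeR called 0 genes higher and 47 lower. DESeq2 called 83 and 188, or 84 and 274 without KO 3 (an alternative chosen after seeing the data), and scaling by total counts gave 4 and 84. One gene was called higher with edgeR's filterByExpr (1), with mitochondrial genes left out (1) and with the rod, cone and muscle lists left out (1). Leaving out 1 library gave 0 to 5 higher, with 5 without KO 1, and 9 to 37 lower. Members called higher went from 0 to 4 under DESeq2. The members' median of 0.25 became -0.24 under total counts and 0.20 to 0.38 with 1 library left out.

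Scaling by total counts turned 11 members negative: Cd53 (-0.10), Adgre1 (-0.26), Itgam (-0.30), Cd14 (-0.10), C1qa (-0.23), C1qb (-0.034), C1qc (-0.083), Fcer1g (-0.023), Fcgr3 (-0.40), Fcgr2b (-0.25) and Cybb (-0.38). With 1 library left out, signs also turned for Itgam (-0.24 to 0.30), C1qa (-0.059 to 0.43), Tyrobp (-0.26 to 0.047), Fcgr3 (-0.065 to 0.31, and -0.054 in DESeq2 without KO 3) and Lyz2 (-0.25 to 0.030). The other 425 member values kept their direction and side of the limits, and the cause of these turns was not tested.

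In KO22 against WT, filterByExpr gave 0 members lower and a median of 1.27, since it tested fewer low genes. Leaving out 1 library gave 2 to 3 members higher, 1 to 3 lower (1 without WT 3 or WT 4) and medians of -0.10 to 0.62. Without a fold limit, 5506 genes were higher and 5331 lower. Coro1a ranged from -0.30 to 0.64 and Ctss from -1.0 to 0.24, with Ctss at 0.0041 in a fit over all 9 libraries.

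In KO26 against WT, 250 genes were higher and 149 lower, 123 and 71 without the pool term, 490 and 235 without a fold limit, 269 lower in DESeq2, and 68 to 471 higher and 32 to 407 lower with 1 library left out. Members higher were 0 to 2 and the members' median 0.40 to 0.76. The 2 came without KO22 1 and were Cd74 and Lyz2, of which Lyz2 passed the count filter only through KO libraries. Signs turned for Cd68 (-0.26 to 0.0060), Cd163 (-1.78 to 0.050), Fcer1g (-0.56 to 0.96) and Cybb (-2.96 to 1.11). In KO22 against KO26, members lower numbered 1, 2 in DESeq2 and 2 with filterByExpr, and 1 to 4 with 1 library left out, when members higher numbered 1 to 3 (1 without KO22 2 or KO22 3). The median of -1.18 became -0.64 with filterByExpr, -0.86 without the pool term and -1.21 to -0.30 with 1 library left out. Without a fold limit, 3388 genes were higher and 3744 lower, and Cybb ranged from -3.58 to 0.48.

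No paired analysis was possible because the replicate numbers follow the order of the libraries and are not given in the labels. In mRPE, members with 0 to 14 counts per library (Lyve1, Cybb, Fcer1g, Lyz2) are limited by depth.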

Other observations

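Genes around the 32 members were read in RPE/choroid by list, and edgeR called none of the genes in the lists given here. In the complement list, C4b, which acts directly downstream of C1, was at 24.0, 19.0 and 20.7 CPM in WT and at 70.2, 73.9 and 38.2 CPM in KO 1, 2 and 3, with no overlap (log2 fold change 1.52 ± 0.26; adjusted p = 0.102 in edgeR, 1.06e-05 in DESeq2).

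Interferon response genes summed to 88.7, 79.7 and 72.7 CPM in WT and to 109.5, 166 and 98.3 CPM in KO 1, 2 and 3. All 12 had a positive fold change, as did 12913 of all 24926 genes tested, with a median of 0.57. At an unadjusted p under 0.05 in edgeR, 6 were higher (3.98% of all genes). DESeq2 called 1 of them higher on both limits (0.333% of all genes), a gene not named here. Ifit3, an interferon-induced protein, was at 14.6, 8.73 and 10.8 CPM in WT and at 21.8, 27.2 and 16.4 CPM in the labelled KO libraries.

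Among 15 other resident macrophage genes the median was -0.18. Mertk, a receptor for apoptotic cells that the RPE also carries, was at 26.4, 29.7 and 27.4 CPM in WT and at 17.04, 18.6 and 20.0 CPM in KO 1, 2 and 3, with no overlap (log2 fold change -0.59 ± 0.12; adjusted p = 0.186 in edgeR, 0.00783 in DESeq2).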
